A study of Homo sapiens with 6 samples.

Results

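L1HS, L1PA2 and L1PA3 are subfamilies of LINE1, the retrotransposon that makes up a large part of human repeat DNA. They were taken by row name from the table of raw repeat counts, where they are 3 of 15600 entries and 3 of the 131 entries named as LINE1 (names starting with L1 or HAL1). All 3 passed the filter on low counts. The cells were wild-type H9, a human embryonic stem cell line that is long established, and RNA was measured in 6 libraries, 2 in each of 3 groups. Primed cells were kept in mTESR medium. RSeT cells were kept in RSeT, a commercial medium for a naive-like state. For RSeT+DT cells, DZNep at 10 nM and TSA at 5 nM were added to RSeT, and collection followed after 48 hours. DZNep blocks S-adenosylhomocysteine hydrolase and lowers EZH2, the enzyme of the Polycomb complex PRC2, and TSA blocks histone deacetylases. All groups come from this 1 cell line, the labels describe no genetic change, and RSeT cells without DZNep and TSA are the untreated control of the RSeT+DT cells.

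A full-length LINE1 has an internal promoter at its start and codes for an RNA-binding protein, ORF1p, and for ORF2p, an endonuclease and reverse transcriptase that copies the RNA back into DNA. The subfamilies form a single lineage: L1HS is the human-specific one and holds the copies that can still move, L1PA2 and L1PA3 are its nearest older relatives, and higher L1PA numbers mark still older ones, most of whose copies are truncated or mutated. In pluripotent cells LINE1 RNA is known to be abundant, and in mouse embryonic stem cells it is known to help hold back an early embryonic gene program and to support the nucleolus. The title of the series places these libraries in a study of LINE1, PRC2, the nucleolus and the 8-cell-like state.

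Counts assigned to repeats summed to between 11520770 and 38312112 per library, and the deepest library was RSeT replicate 1. The 3 subfamilies had from 11979 counts (L1HS in primed replicate 2) to 258872 counts (L1PA3 in RSeT replicate 1), so that counting error alone was between 0.197% and 0.914% of a count. A value pools every genomic copy of a subfamily and has no single position, neighbouring subfamilies can share reads, and copies inside a host gene also count reads of that gene's transcript. Counts were not divided by length, so levels are compared between groups and not between subfamilies. Levels below are CPM, the share of all repeat counts of a library on the usual per-million scale, and log2 fold changes are those of edgeR's quasi-likelihood test after TMM scaling, with adjusted p under 0.05 over all 4665 features tested as the threshold. A change that passed is called a rise or a fall. The smallest two-sided p of an exact permutation test with 2 libraries against 2 is 0.333, so every p-value rests on the model. Whether replicates came from separate cultures is not in the labels, and p-values reflect only the scatter among these libraries, possibly technical. In bulk RNA, fewer cells with LINE1 RNA and less LINE1 RNA per cell cannot be told apart.

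RSeT against primed cells asks how the naive-like and the primed culture differ. All 3 subfamilies rose. L1HS stood at 886 and 879 CPM in the primed libraries and at 2383 and 2387 CPM in the RSeT libraries. The RSeT libraries lay far above the primed ones, and the replicates of each group nearly coincided. The log2 fold change of L1HS was 1.57 (SE 0.044, 95% interval 1.48 to 1.66), a 2.96-fold rise with adjusted p = 2.88e-20 in edgeR's quasi-likelihood test. L1PA2 stood at 2920 and 3037 CPM in primed and at 6385 and 6418 CPM in RSeT libraries. It rose by 1.24 (SE 0.033), or 2.36-fold. L1PA3, the oldest of the 3, stood at 4395 and 4536 CPM in primed and at 6757 and 6878 CPM in RSeT libraries. Its rise was 0.74 (SE 0.032), or 1.67-fold.

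These 3 rises were read against a background in which many repeats moved. Of all features tested, 46.6% passed in this comparison, 22.8% as higher and 23.8% as lower. Without simple repeats the balance differed: of 1232 such features 629 rose and 107 fell. Among the 131 LINE1 entries, 83.2% rose and 1.53% fell, that is 109 and 2 entries. With library totals 68 rose and 4 fell, with interspersed scaling (small RNA, ribosomal RNA and simple repeats left out before TMM) 76 rose and 14 fell, and with LINE1 scaling (only LINE1 entries kept before TMM) 52 rose and 49 fell. A rise alone was therefore no mark of the 3 subfamilies. By size of the log2 fold change, L1HS ranked 3, L1PA2 ranked 5 and L1PA3 ranked 11 among the 131 LINE1 entries, and 18, 40 and 127 among the 1232 features that are not simple repeats. The median log2 fold change was 0.28 over LINE1 entries, 0.17 over features other than simple repeats and -0.030 over all features tested. With library totals in place of TMM the split over all features moved to 683 higher and 1533 lower, from 1064 and 1110, and the 3 subfamilies still rose, by 1.43, 1.10 and 0.61.

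**Figure D1:**
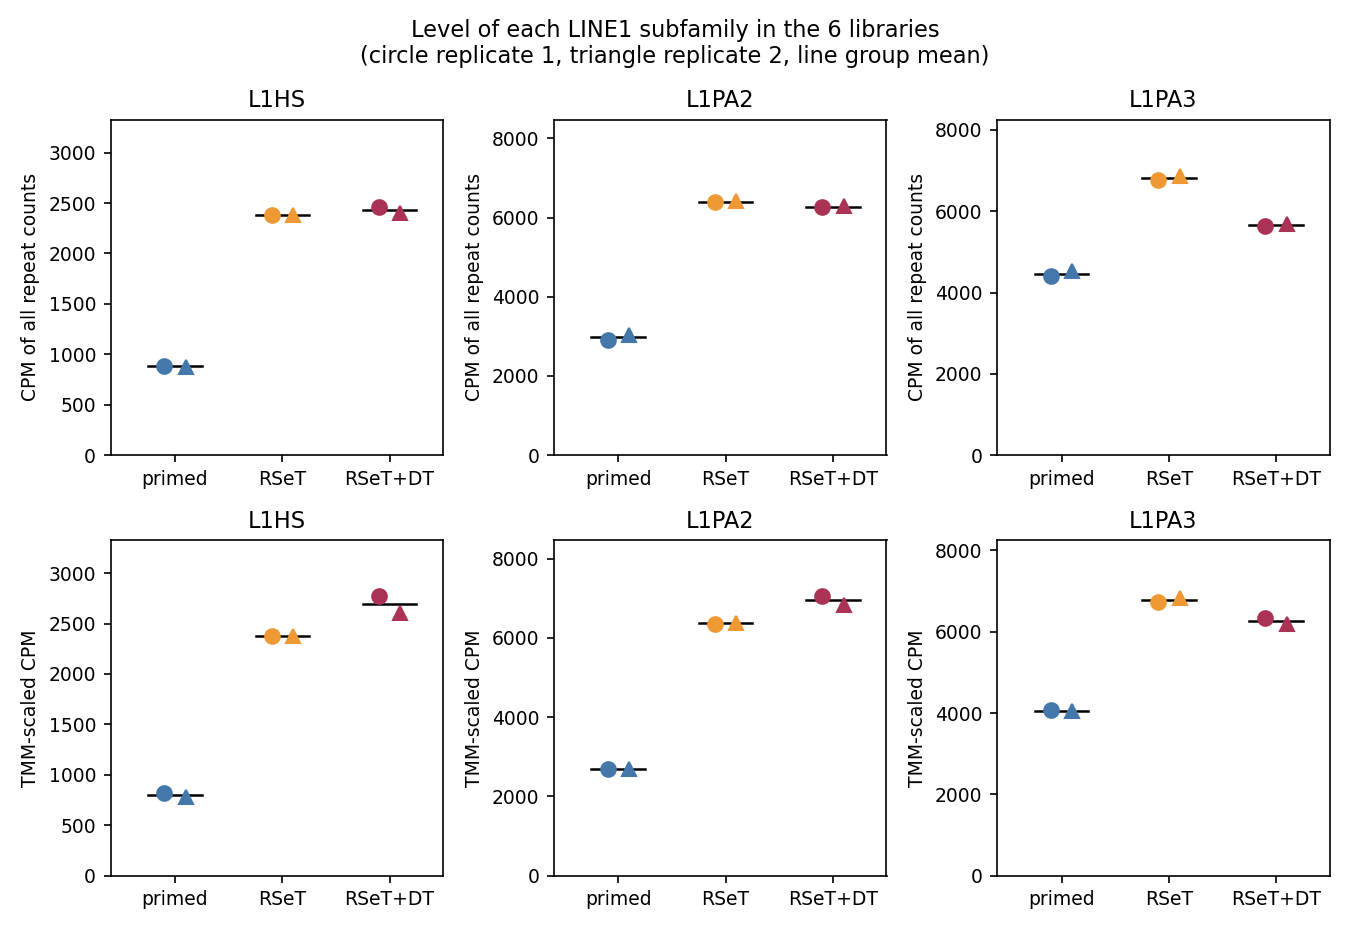
Levels of L1HS, L1PA2 and L1PA3 (columns) in the 6 libraries, as CPM of all repeat counts (top row) and as CPM after TMM scaling (bottom row). Circles are replicate 1, triangles replicate 2 and lines the mean of 2 libraries. Primed libraries are the lowest in every panel. For L1PA2, RSeT+DT stands slightly below RSeT in CPM and above it after TMM scaling, and L1PA3 falls back in both rows.

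RSeT+DT against RSeT cells asks what the added DZNep and TSA changed. The 3 subfamilies split, and the RSeT libraries used here are the same ones as in the comparison above. L1HS stood at 2462 and 2398 CPM in RSeT+DT against 2383 and 2387 CPM in RSeT libraries. The libraries did not overlap, but the group means, 2385 ± 2.23 and 2430.2 ± 45.1 CPM (SD, n = 2 each), lay about 1 SD of the RSeT+DT pair apart. After TMM scaling L1HS stood at 2773 and 2609 CPM against 2375 and 2372 CPM, a rise of 0.18 (SE 0.043, 95% interval 0.093 to 0.27; adjusted p = 0.00114 in edgeR's quasi-likelihood test). L1PA2 stood at 6269 and 6282 CPM in RSeT+DT and at 6385 and 6418 CPM in RSeT libraries. It was thus slightly lower as CPM, while after TMM scaling it rose by 0.12 (SE 0.033, adjusted p = 0.00287 in edgeR). L1PA3 stood at 5628 and 5697 CPM in RSeT+DT and at 6757 and 6878 CPM in RSeT libraries. It fell by 0.11 after TMM scaling (SE 0.032, adjusted p = 0.00509 in edgeR).

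In this comparison 42.4% of all features tested passed, and 25.1% of all features tested were called higher and 17.4% lower. That split of 1170 higher and 810 lower turned to 790 higher and 1156 lower with library totals. Of the 131 LINE1 entries 87% fell and 3.82% rose, that is 114 and 5 entries. L1HS and L1PA2 were thus 2 of the 5 LINE1 rises with TMM. With library totals 122 entries fell and 1 rose, with interspersed scaling 91 fell and 14 rose, and with LINE1 scaling 23 fell and 35 rose. L1HS ranked 3, L1PA2 ranked 6 and L1PA3 ranked 15 of 131 by log2 fold change. The median was -0.37 over LINE1 entries, -0.22 over features other than simple repeats and 0.027 over all features.

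The sign of these small changes depended on what the libraries were scaled to. The change stood at 0.027 for L1HS and -0.029 for L1PA2 with library totals, neither passing, while L1PA3 fell by 0.27. With interspersed scaling L1HS rose by 0.40, L1PA2 by 0.34 and L1PA3 by 0.11. With LINE1 scaling the rises were 0.55, 0.49 and 0.25, which sets each subfamily against the bulk of LINE1. The median shift of all shared features against TMM was -0.15 with library totals, 0.22 with interspersed scaling and 0.36 with LINE1 scaling. A change of scaling moves all features by nearly the same amount, so it leaves the order of the 3 subfamilies as it is by construction.

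Features that weigh on the scaling also differed between these groups. The signal recognition particle RNA 7SLRNA took 14.7% and 14.1% of repeat counts in RSeT and 21.3% and 19.2% in RSeT+DT libraries, HERVH-int took 7.34% and 7.56% against 11.9% and 11.5%, and the centromeric satellite ALR/Alpha took 3.24% and 3.26% against 0.843% and 0.784%. In primed libraries 7SLRNA was at 22.1% and 20.5%, HERVH-int at 2.38% and 2.65% and ALR/Alpha at 0.0524% and 0.0549%. The share of 7SLRNA was thus lowest in RSeT libraries. Their part in the sign of the small changes was not tested one by one.

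**Figure D2:**
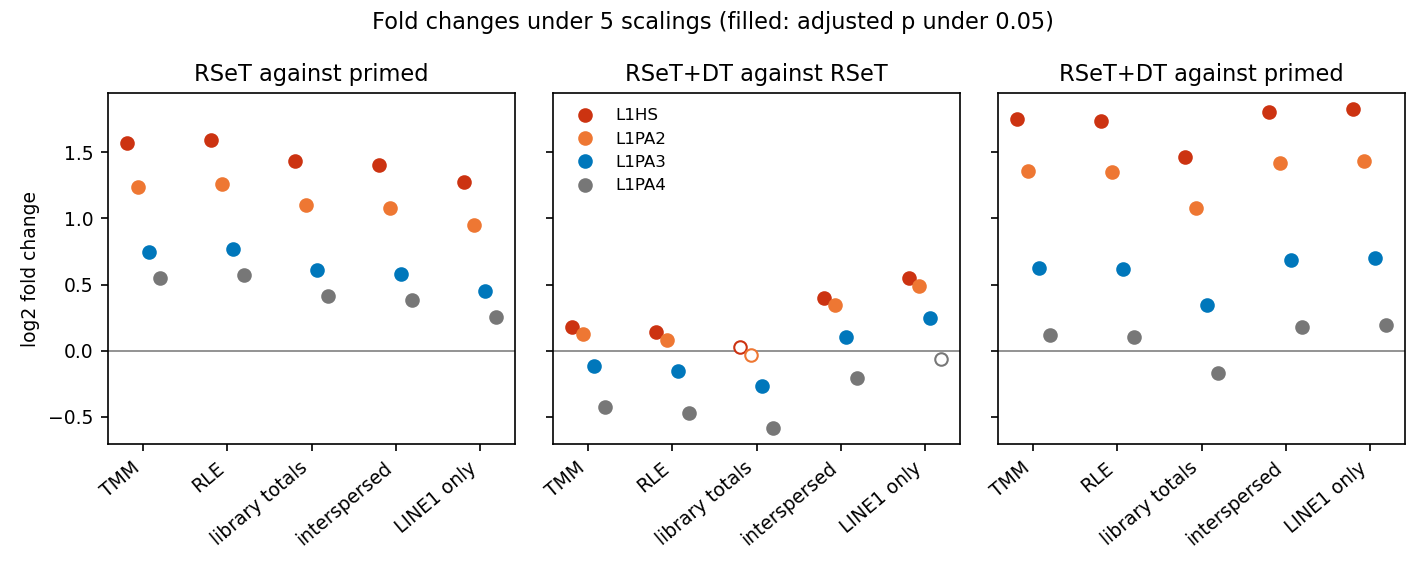
Log2 fold change (vertical axis) of L1HS, L1PA2, L1PA3 and the next older subfamily L1PA4 in the 3 comparisons (panels) under 5 ways of scaling the libraries (horizontal axis). Filled points have an adjusted p under 0.05. In RSeT against primed cells and in RSeT+DT against primed cells L1HS, L1PA2 and L1PA3 are above 0 under all 5. L1PA4 is also above 0 under all 5 in RSeT against primed cells. In RSeT+DT against primed cells it is below 0 with library totals (-0.17). In RSeT+DT against RSeT cells the points slide up and down together, from 0.027 to 0.55 for L1HS.

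RSeT+DT against primed cells spans both steps and shares its libraries with the comparisons above. L1HS went from 882.4 ± 4.95 to 2430.2 ± 45.1 CPM (n = 2 each) and rose by 1.75 (SE 0.044), or 3.36-fold. L1PA2 went from 2979 ± 83.1 to 6275 ± 9.05 CPM and rose by 1.36 (SE 0.033), or 2.57-fold. L1PA3 went from 4465 ± 99.3 to 5662 ± 48.7 CPM and rose by 0.63 (SE 0.032), or 1.55-fold. The groups did not overlap for any of the 3. After TMM scaling they did not overlap for the older L1PA6 either, which did not pass (adjusted p = 0.29 in edgeR). Over all features the share without overlap was not counted, so lack of overlap does not set the 3 apart. Here 45.8% of all features passed, 25.1% as higher and 20.6% as lower, and 29% of LINE1 entries rose while 42.7% fell, that is 38 and 56. This balance turned with scaling, from 14 higher and 94 lower with library totals to 51 higher and 48 lower with interspersed scaling. L1HS had the largest log2 fold change of the 131 LINE1 entries, L1PA2 ranked 3 and L1PA3 ranked 10. All 3 also rose with library totals (1.46, 1.08 and 0.34), interspersed scaling (1.81, 1.42 and 0.69) and LINE1 scaling (1.82, 1.44 and 0.70).

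Ratios between the subfamilies inside a library do not depend on any scaling between libraries. They are ratios of counts, not of transcripts, because the summed length of the copies differs. The ratio of L1HS to L1PA3 counts was 0.202 and 0.194 in primed, 0.353 and 0.347 in RSeT and 0.437 and 0.421 in RSeT+DT libraries. No group overlapped another, and the order was primed, RSeT, RSeT+DT. How many other features keep this order relative to L1PA3 was not counted. Each step was tested in edgeR with the library size set to the L1PA3 count. The ratio rose by 0.82 on the log2 scale (SE 0.046, 1.77-fold) from primed to RSeT and by 0.29 (SE 0.046, 95% interval 0.20 to 0.39) from RSeT to RSeT+DT, with adjusted p = 9.77e-14 and 1.19e-05. In these fits 77.6% and 41% of features changed relative to L1PA3. From primed to RSeT+DT, where 66.9% changed, the rise was 1.12 (SE 0.046).

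The ratio of L1PA2 to L1PA3 counts was 0.664 and 0.67 in primed, 0.945 and 0.933 in RSeT and 1.11 and 1.10 in RSeT+DT libraries. It was above 1 in both RSeT+DT libraries and below 1 in the other 4. It rose by 0.49 (SE 0.037) in the first step and by 0.24 (SE 0.037) in the second, with adjusted p = 1.79e-11 and 1.13e-05 in edgeR's quasi-likelihood test. The ratio of L1HS to L1PA2 was 0.303 and 0.289 in primed, 0.373 and 0.372 in RSeT and 0.393 and 0.382 in RSeT+DT libraries. The first step was a rise of 0.33 (SE 0.049, adjusted p = 1.16e-06 in edgeR). The second step, 0.056, did not pass (adjusted p = 0.375 in edgeR), and its 95% interval ran from -0.044 to 0.16. The interval leaves room for a small change of either sign. Scaled to L1PA2, 89.2% and 42.2% of features changed in these steps.

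**Figure D3:**
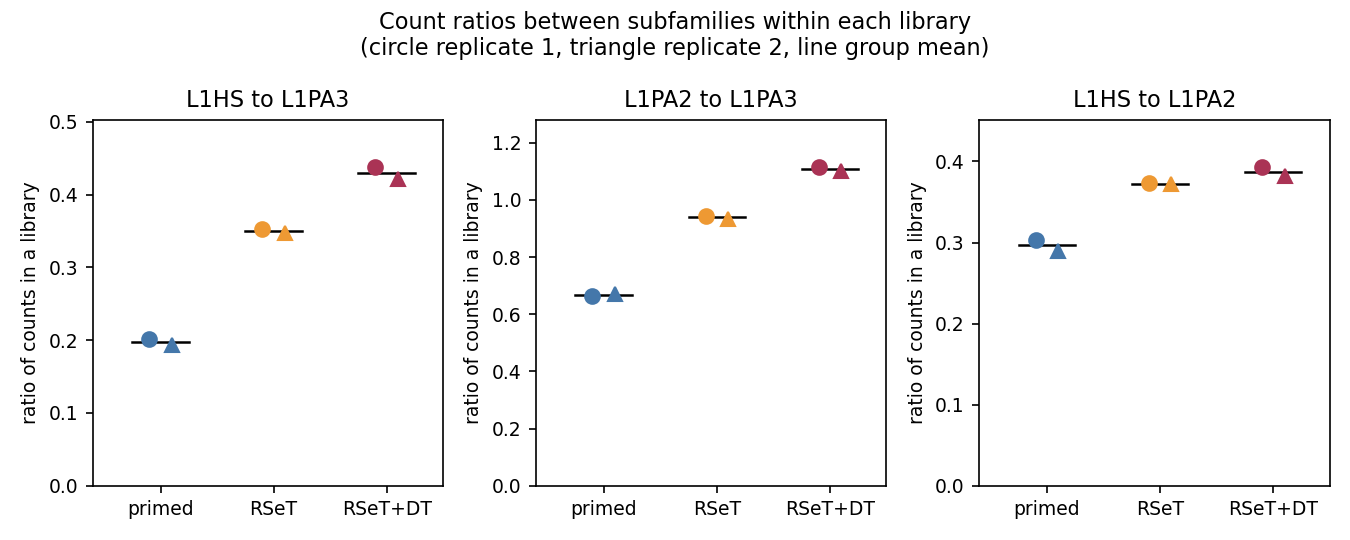
Ratio of counts between 2 subfamilies within each library (vertical axes, from 0) for L1HS to L1PA3, L1PA2 to L1PA3 and L1HS to L1PA2 in primed, RSeT and RSeT+DT cells. Circles are replicate 1, triangles replicate 2 and lines group means. The ratios to L1PA3 climb in both steps, while L1HS to L1PA2 climbs from 0.296 to 0.373 in the first step and stands at 0.387 after the second, a step that did not pass.

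L1PA4 is the next older subfamily and the nearest entry outside the 3. Its mean over 2 libraries was 3189 CPM in primed cells, 4251 CPM with RSeT and 2841 CPM with RSeT+DT. It rose by 0.55 (SE 0.036) from primed to RSeT and fell by 0.43 (SE 0.036) from RSeT to RSeT+DT. The ratio of L1PA3 to L1PA4 counts was 1.41 and 1.39 in primed, 1.60 and 1.60 in RSeT and 2.03 and 1.96 in RSeT+DT libraries. In edgeR with the library size set to the L1PA4 count, a test chosen after seeing the data, this ratio rose by 0.20 (SE 0.028) in the first step and by 0.31 (SE 0.028) in the second, with adjusted p = 5.44e-06 and 1.7e-08. The L1HS to L1PA4 ratio rose by 1.02 and 0.61, and that of L1PA2 to L1PA4 by 0.69 and 0.55, where 69.5% and 53.6% of features changed relative to L1PA4. From primed to RSeT+DT the 3 ratios rose by 1.63, 1.24 and 0.51, where 46.3% of features changed. So L1PA3, which lost ground to L1HS and L1PA2 in the treated cells, gained on L1PA4 there. From RSeT to RSeT+DT, L1PA4 ranked only 102 of 131 LINE1 entries by log2 fold change. Most LINE1 entries thus gained on L1PA4 in that step, and the gain does not set L1PA3 apart.

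The share of the 3 subfamilies in all LINE1 counts needs no scaling between libraries. It was 7.31% and 7.20% in primed, 11.5% and 11.5% in RSeT and 14.8% and 13.8% in RSeT+DT libraries. Wilson 95% intervals, which cover counting error only, were at most 0.124 percentage points wide. The RSeT+DT replicates differed by more than that. L1HS alone went from 0.769 ± 0.029% to 1.76 ± 0.0038% and 2.42 ± 0.16% (n = 2 each). L1PA2 went from 2.60 ± 0.0097% to 4.72 ± 0.0026% and 6.26 ± 0.29%, and L1PA3 from 3.89 ± 0.037% to 5.02 ± 0.047% and 5.65 ± 0.22%. For each of the 3, every RSeT+DT library was above every RSeT library and every RSeT library above every primed one. How many other LINE1 entries keep this order was not counted. A climb against the bulk of LINE1 in both steps was not particular to the 3. With LINE1 scaling the older L1PA8A (0.68 and 0.12) and L1PA13 (0.45 and 0.23) also rose in both, while L1PA11 fell in both (-0.18 and -0.17). In the second step 1 of the 6 entries from L1PA4 to L1PA8A rose and none fell. Of the 9 from L1PA10 to L1PA17, 4 rose and 2 fell.

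In CPM, LINE1 as a whole went from 114758 ± 3632 in primed to 135691 ± 423 in RSeT and 100380 ± 4858 in RSeT+DT cells. The 3 subfamilies went from 8326 ± 177 to 15604 ± 111 and 14368 ± 12.7 CPM. They made up 34.8% of the LINE1 gain from primed to RSeT, 7278 of 20933 CPM. This share depends on the scaling. After TMM scaling the 3 went from 7559 to 15527 CPM and the other LINE1 entries from 96608 to 119498 CPM. From RSeT to RSeT+DT the mean change in CPM was -35311 for LINE1 and -1236 for the 3 subfamilies, 3.50% of it. These sums were not tested, and the sign for the 3 subfamilies turned with scaling: after TMM scaling they summed to 15471 and 15584 CPM in RSeT libraries and to 16172 and 15638 CPM in RSeT+DT libraries. All other LINE1 entries together stood at 106431 ± 3454, 120087 ± 312 and 86012 ± 4846 CPM, lowest in RSeT+DT cells. After TMM scaling they stood at 96608 ± 427, 119498 ± 72.2 and 95150 ± 3023 CPM, where the RSeT+DT libraries (93012 and 97287) spanned the primed ones.

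**Figure D4:**
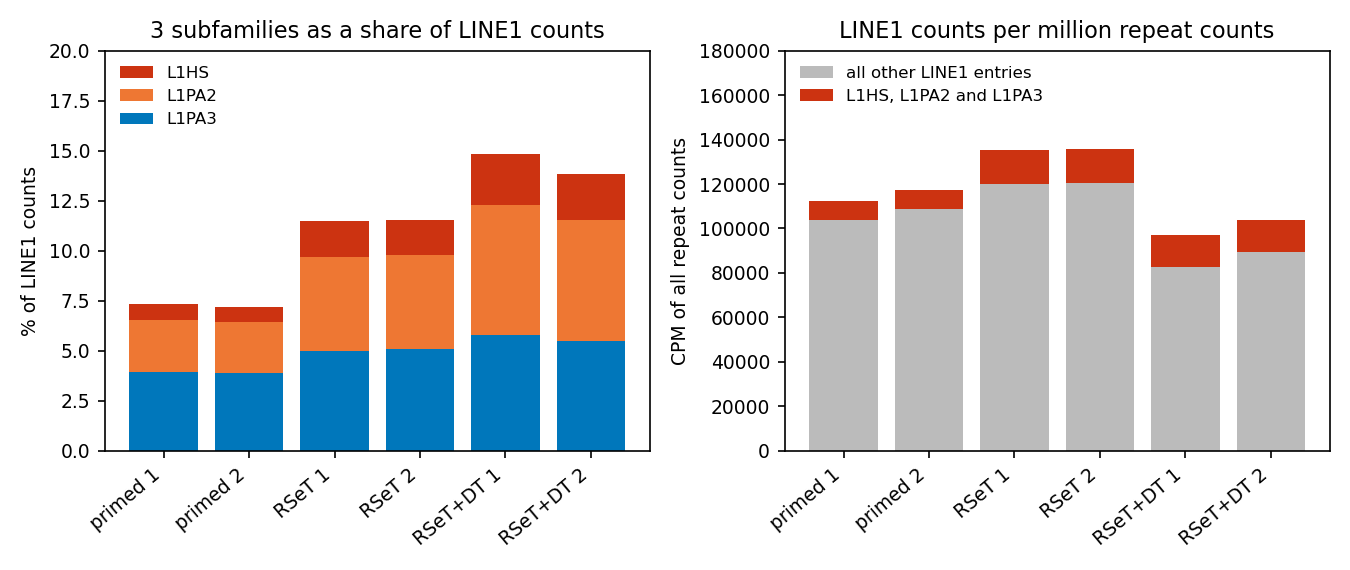
Left, L1HS, L1PA2 and L1PA3 as stacked percentages of all LINE1 counts in each of the 6 libraries. Right, CPM of the 3 subfamilies (red) on top of all other LINE1 entries (grey). The stacked share climbs from about 7.26% through 11.5% to 14.3% (group means), while the grey bars, in CPM, are lowest in the RSeT+DT libraries.

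Older subfamilies of the same lineage did not continue this order. From primed to RSeT cells, all 6 of L1PA4, L1PA5, L1PA6, L1PA7, L1PA8 and L1PA8A rose, with a median of 0.47 and values from 0.28 (L1PA8, L1PA5) to 0.97 (L1PA8A). Of the 9 entries from L1PA10 to L1PA17 all rose as well, with a median of 0.46, from 0.11 (L1PA11) to 0.74 (L1PA13). L1PA8A thus had a larger rise than L1PA3. Under interspersed scaling 6 of the 6 and 7 of the 9 rose, and under LINE1 scaling 4 and 6 rose while 0 and 2 fell.

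From RSeT to RSeT+DT cells, all 6 and all 9 fell with TMM, with medians of -0.40 and -0.32. The fall was smallest in L1PA13 (-0.13) and largest in L1PA11 (-0.54). Under interspersed scaling 5 of the 6 fell and none rose, and of the 9, 7 fell and 1 rose. Under LINE1 scaling 1 of the 6 rose and none fell, and of the 9, 4 rose and 2 fell. From primed to RSeT+DT cells, 2 of the 6 rose (L1PA8A by 0.73 and L1PA4 by 0.12) and 1 fell (L1PA5, by 0.11). With library totals 1 of the 6 rose and 5 fell, but with interspersed and with LINE1 scaling 4 rose and none fell. Of the 9, 4 rose and 3 fell with TMM. With library totals 1 of the 9 rose and 5 fell, and with interspersed and with LINE1 scaling 6 rose and 2 fell.

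Across the 18 entries from L1HS to L1PA17, taken in the order of their names, Spearman's rho between place in the order and log2 fold change was -0.43 for RSeT against primed cells, -0.29 for RSeT+DT against RSeT and -0.35 for RSeT+DT against primed cells. Without L1HS, L1PA2 and L1PA3 it was -0.032, 0.22 and 0.096 over 15 entries. These are descriptions only, since all entries come from the same libraries and neighbours can share reads.

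**Figure D5:**
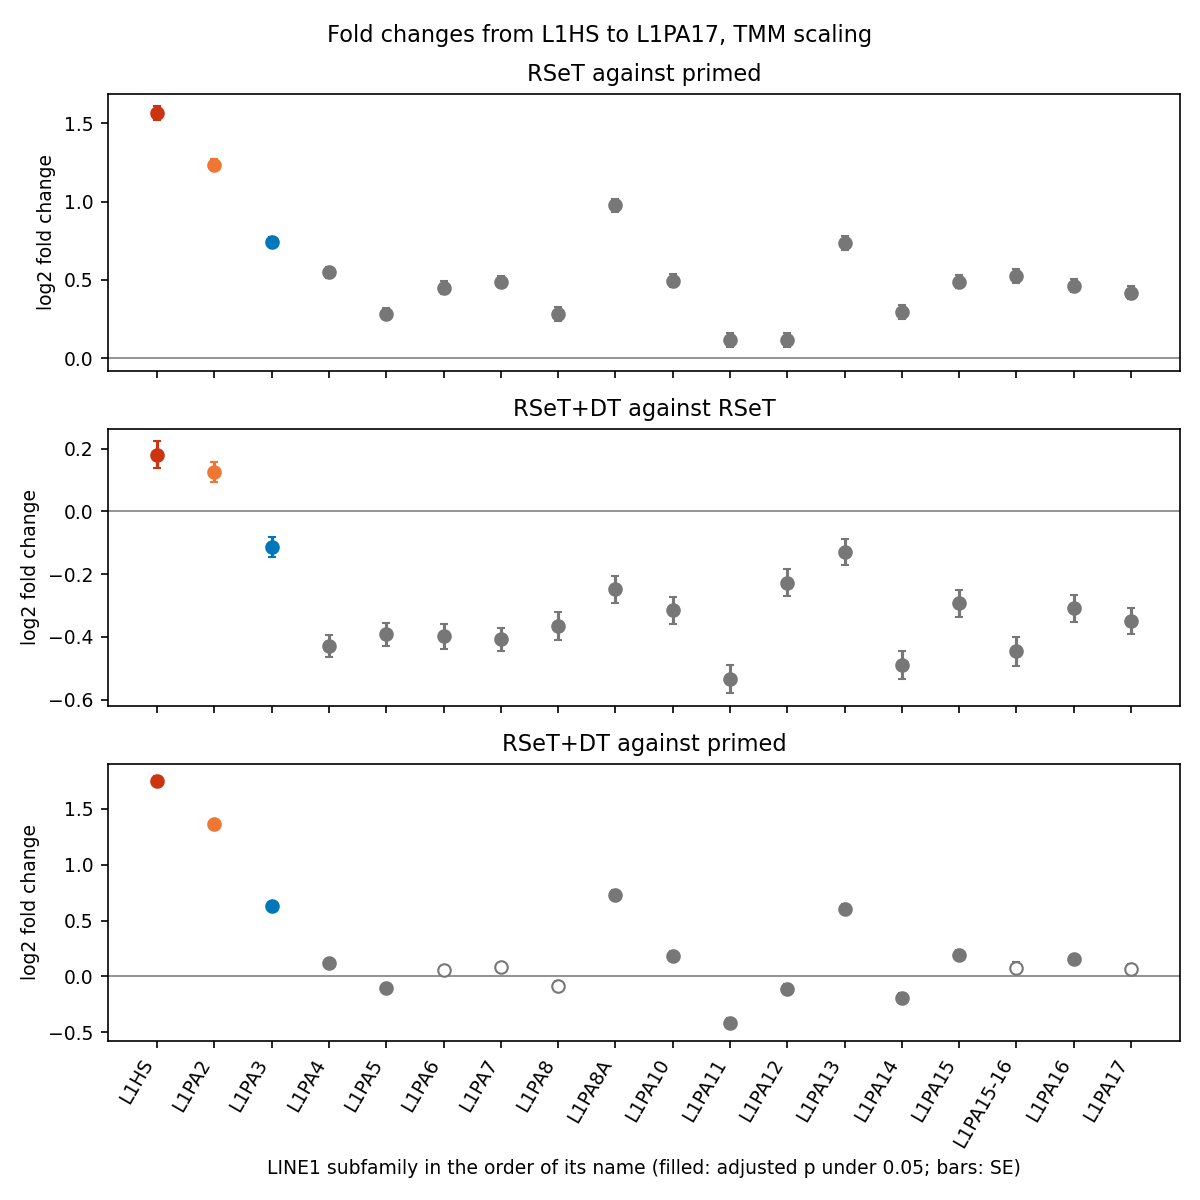
Log2 fold change (vertical axes, TMM scaling) of the 18 entries from L1HS to L1PA17 in the order of their names, for the 3 comparisons (panels). Bars are standard errors, and filled points have an adjusted p under 0.05. L1HS, L1PA2 and L1PA3 (coloured) step down from left to right in every panel, and L1PA4 steps down further. The entries from L1PA6 on (grey) follow no steady order, with L1PA8A and L1PA13 standing above their neighbours.

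Outside that lineage, all 8 L1PB entries rose from primed to RSeT, from 0.35 (L1PBb) to 1.43 (L1PB2), a rise between those of L1PA2 and L1HS. Of 11 entries named L1P with a number, 7 rose and none fell, and L1P4d (1.99) exceeded L1HS. All 12 L1MA entries rose, from 0.27 (L1MA5A) to 0.72 (L1MA1). Of the 80 other L1M and HAL1 entries 63 rose and 1 fell, with a median of 0.21, against 24 and 3 with library totals and 32 and 13 with interspersed scaling. With LINE1 scaling the balance turned, and 16 of the 80 rose while 45 fell. In RSeT+DT against RSeT cells 7 of 8 L1PB, 9 of 11 L1P, 12 of 12 L1MA and 69 of 80 other L1M and HAL1 entries fell. With interspersed scaling 5 of 8, 7 of 11, 11 of 12 and 55 of 80 fell. With LINE1 scaling 1 of 8, 4 of 11, 5 of 12 and 10 of 80 fell, while 3, 3, 1 and 20 rose. The other 3 LINE1 rises with TMM were all among these 80, led by L1M2 (0.65).

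Alu and SVA elements code for no reverse transcriptase and are copied by the proteins of LINE1. Of 8 young AluY entries 5 passed the filter on low counts and the others were listed at 0 in all libraries, and 4 of these rose from primed to RSeT, among them AluYb8 (0.65) and AluYa5 (0.52). From RSeT to RSeT+DT, AluYa5 rose by 0.28 and AluYb8 by 0.11, and the other 3 did not pass. With library totals none of the 5 passed in that step, and with interspersed scaling 4 rose. Of the 6 SVA entries 4 rose from primed to RSeT and none fell, led by SVA_F (0.41), against 2 and 2 with interspersed scaling. From RSeT to RSeT+DT SVA_E rose by 0.28 and 3 fell, while SVA_D (0.042) and SVA_F (-0.030) did not pass. With interspersed scaling 5 of the 6 rose in that step and none fell, and with library totals none rose and 4 fell.

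MIR and L2 are old repeats that lie mostly in introns and untranslated regions, so their counts can include reads of host transcripts. How far they do so in these libraries was not tested. Of 12 tested, none rose and 2 fell from primed to RSeT, with a median of -0.0048. With library totals 7 fell (median -0.14) and with interspersed scaling all 12 fell (median -0.17). From RSeT to RSeT+DT none rose and 9 fell, with a median of -0.22, against 2 rises and no fall at a median of 0.00026 under interspersed scaling. The part of host transcripts in the L1HS, L1PA2 and L1PA3 counts was not tested.

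By the smallest root mean square difference of log2 TMM-scaled CPM over the 6 libraries, each centred on its mean, among 1138 other features that are not simple repeats, L1HS was most like tRNA-Glu-GAA (0.10) and LTR17 (0.13), then MER136, MER61A and LTR80B. LTR17 is the promoter of the HERVW retroviruses. L1PA2 was most like MER110A (0.039), Kanga11a (0.055), MER76-int, CER and LTR29. L1PA3 was most like L1PA13 (0.024) and LTR105_Mam (0.027), then Harlequin-int, MER4A1 and THE1C-int. The distance was 0.17 between L1HS and L1PA2, 0.31 between L1PA2 and L1PA3 and 0.47 between L1HS and L1PA3. No one of the 3 was thus among the 5 features nearest to another. For L1HS this rests on the cut at 5, since LTR80B, the fifth, was at 0.169 and L1PA2 at 0.172.

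Both tables list repeats, so the protein-coding markers of embryonic stem cells and of other cell types were not analysed here. Repeats that mark cell states moved as well. The 5 entries of HERVH and its LTR7 promoters, active in pluripotent cells, summed to between 27508 and 30462 CPM in primed, between 83235 and 85645 in RSeT and between 129979 and 134198 in RSeT+DT libraries. From primed to RSeT 4 of the 5 rose, and 4 also rose from RSeT to RSeT+DT. With library totals 3 of the 5 were higher and 1 lower in each step. The background in these steps was 22.8% and 25.1% of all features tested called higher, and 23.8% and 17.4% called lower. HERVH-int made up most of the sums, with group means of 25171, 74521 and 116732 CPM. HERVH-int, LTR7 and LTR7Y rose in both steps. LTR7B rose by 0.087 and then changed by -0.044, which did not pass. LTR7C changed by -0.15, which did not pass, and then rose by 0.26. The 5 entries tied to the 8-cell stage (HERVL-int, MLT2A1, MLT2A2, ERVL-int and LTR14B) summed to 1345 to 1396, 1565 to 1618 and 1244 to 1266 CPM. Of these 4 rose in the first step, and 2 fell and none rose in the second. The second step turned with scaling, with 3 higher and 1 lower under interspersed scaling and none higher and 4 lower with library totals. The 9 entries active in trophoblast summed to 1827 to 1917, 2444 to 2500.1 and 2253 to 2275 CPM, with 6 higher and 2 lower in the first step and 2 higher and 5 lower in the second. Here too the second step turned, with 4 higher and none lower under interspersed scaling and 1 higher and 7 lower with library totals. None of these entries was at 0. Their part in the LINE1 changes was not tested.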

How the data were processed

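RNA came from about 500 K cells per sample, and libraries were made from 500 ng of total RNA with a stranded kit, per the labels' protocols. The authors deposited raw counts per repeat name and a CPM table. The tools named are STAR 2.7.8a, Subread 2.14.2, featureCounts and Trimmomatic 0.39, with GRCh38/hg38 as build, per the submitters' processing notes. Not given in the sources used here are their roles, the repeat annotation, the strand setting and the treatment of multi-mapped reads, and that treatment decides how reads are split among L1HS, L1PA2 and L1PA3. The deposited CPM lists 7383 entries and equals their counts over the summed counts of those entries within 0.00442 CPM.

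CPM was computed here over all 15600 entries and so differs slightly from the deposited values. Counts were tested with edgeR 4.0.16 (R 4.3.3): TMM, filterByExpr (at least 10 counts, total of 15), 1 fit of all 6 libraries on group alone with 3 residual degrees of freedom, and Benjamini-Hochberg adjustment over 4665 features. The biological coefficient of variation was 5.49%. The SE is the size of the log2 fold change over the square root of F. For ratios, the library size was set to the count of L1PA3, L1PA2 or L1PA4. Replicates differed by more than sampling noise (chi-square per degree of freedom 26.3, 4.87 and 16.9 in primed, RSeT and RSeT+DT).

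The subfamilies, lists and alternatives were chosen with earlier results of these data known. Named were the 3 subfamilies, L1PA4 to L1PA8A, SVA_D to SVA_F, AluYa5 and AluYb8, the largest and smallest changes of other lists at a mean count of at least 50, and the 5 features nearest in pattern. Some of these are given only as counts, and L1P4d and L1M2 are the largest of their lists. Alternatives used RLE, library totals, interspersed and LINE1 scaling, other filters, DESeq2 1.42.0, limma 3.58.1 on log2 CPM (the deposited values, 1 or 0.1 added), only the groups compared, the replicate block, thinning of RSeT replicate 1, and each library left out.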

Additional observations from a re-analysis of the deposited data

How the results depend on the processing

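For the 9 fold changes of L1HS, L1PA2 and L1PA3, 153 of 162 values under other settings kept direction and side of the threshold, and all 99 did so for the ratios between them. The other 9 values concern RSeT+DT against RSeT. L1HS did not pass with library totals (0.027) or in limma with 1 (0.0269) or 0.1 added (0.0269). L1PA2 turned to -0.029 with library totals and to -0.0288 in both limma fits, none passing, and did not pass with a mean count of at least 50 (0.068). L1PA3 turned to rises of 0.11 with interspersed and 0.25 with LINE1 scaling. Outside these 162 values it also turned to 0.31 relative to L1PA4, an alternative chosen after seeing the data. Without each library in turn L1HS ranged from 0.14 to 0.24, L1PA2 from 0.11 to 0.16 and L1PA3 from -0.12 to -0.086, all passing; where 1 library was left in a group, it was assumed to vary like the others.

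Counts of features called higher were 1064, 1170 and 1173 for RSeT against primed, RSeT+DT against RSeT and RSeT+DT against primed cells, and 1110, 810 and 962 were lower. Fewer features were tested with interspersed scaling (346, 261 and 372 higher, 305, 239 and 341 lower) and LINE1 scaling (52, 35 and 55 higher, 49, 23 and 48 lower). Library totals gave 683 higher in the first, 790 higher and 1156 lower in the second and 609 higher and 1787 lower in the third comparison. Limma with 1 added gave 641, 770 and 628 higher and 1895 lower in the third, and with 0.1 added 622, 758, 621 and 1841. DESeq2 gave 686 lower in the first. The cause of these moves was not tested.

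The labels do not say that replicate numbers pair samples, and replicate differences correlated across 2942 features at 0.0887, -0.0379 and -0.00373 between groups. With the replicate block L1HS changed by 1.57, 0.18 and 1.75, 1053, 1148 and 1166 features were higher and 1104, 801 and 961 lower, and no call of the 3 subfamilies or their ratios changed.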
